A study of Mus musculus with 43 samples.

Results

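The 10 genes described here encode transcription factors of the oligodendrocyte lineage: *Myrf*, *Sox10*, *Olig1*, *Olig2*, *Nkx2-2*, *Nkx6-2*, *Zfp488*, *Tcf7l2*, *Sox8* and *Sox6*. They were chosen by name, with earlier results of these data known. Each matched 1 gene identifier among the 55416 genes counted in every library. All 10 passed the filter on low counts in the comparison of oligodendrocytes with oligodendrocyte precursor cells (OPCs). The series holds 43 RNA-seq libraries of 4 glial cell types from the cerebral cortex of 12 mice aged 3 months, taken as 6 littermate pairs. In each pair a Rag2-/- mouse, which makes no mature T or B lymphocytes and is called Rag2 KO, was set against an immunocompetent littermate. The control arm mixed genotypes, since the controls of 4 pairs were Rag2+/- and those of the other 2 pairs Rag2+/+. Cells were captured from a cell suspension of each cortex by immunopanning, in which they bind to dishes coated with an antibody to a surface molecule. The targets were, in order, CD45 for microglia, PDGFRα for OPCs, GalC for oligodendrocytes and HepaCAM for astrocytes. Between the OPC and oligodendrocyte dishes, dishes with O4 antibody depleted further OPCs, and the cells on them were not sequenced. There were 11 OPC libraries (6 control, 5 Rag2 KO), 8 oligodendrocyte libraries (4 and 4), 12 astrocyte libraries (6 and 6) and 12 microglia libraries (6 and 6), and 7 mice gave both an OPC and an oligodendrocyte library. Rag2 was absent from every cell of the knockout mice, so the genotype comparison is not one of glia that lost the gene on their own. The libraries of each cell type shared a sequencing lane of their own, so an effect of the lane cannot be told apart from one of the cell type.

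As background, OPCs divide and migrate through the brain and differentiate into oligodendrocytes, which wrap axons in myelin. *Olig2*, *Olig1*, *Nkx2-2* and *Sox10* help to specify the lineage and remain on in its cells, *Sox6* acts with its relative *Sox5* to hold cells in the precursor state, and *Myrf* is a membrane-bound factor whose cleaved N-terminal part switches on myelin genes. *Sox8* is a close relative of *Sox10*, *Zfp488* is a zinc-finger protein that binds *Olig2* protein, *Nkx6-2* is a homeodomain factor of myelinating cells, and *Tcf7l2* is a nuclear partner of β-catenin in Wnt signalling that is also used during differentiation.

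Between 6499417 and 23118497 read pairs per library were counted on genes. Mitochondrial transcripts took 45.8% to 60.1% of the counts in oligodendrocytes, 22.4% to 36.7% in OPCs, 22.5% to 45.1% in astrocytes and 6.76% to 11.7% in microglia, so levels taken as a share of all gene counts understate every nuclear gene of oligodendrocytes against the other cells. Levels are therefore given as normalized CPM (CPM, counts scaled to a fixed library total), with library sizes scaled by the trimmed mean of M values (TMM) over all 43 libraries, and results under other scalings are given where they differ. Marker genes of each cell type were highest in the libraries labelled with it. A panel of 11 oligodendrocyte genes including *Mbp* and *Mog* summed to between 29300 and 37660 normalized CPM in oligodendrocytes, 375.9 to 1579 in OPCs, 3943 to 7533 in astrocytes and 81.2 to 139.9 in microglia. A panel of 10 OPC genes including *Pdgfra* and *Cspg4* summed to between 4225 and 5657 normalized CPM in OPCs, 310.4 to 1038 in oligodendrocytes, 606.7 to 839.9 in astrocytes and 14.04 to 80.6 in microglia. No gene of either panel was at or below 3 counts in all libraries of any cell type. In bulk samples fewer cells of a type and less RNA per cell cannot be told apart.

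The bases just before the transcription start are shown for 3 of the members that differed most between OPCs and oligodendrocytes, 1 that was higher in oligodendrocytes and 2 that were lower. They are the 250 bases upstream of the annotated canonical start, 5′ to 3′ on the gene's strand, read from the GRCm39 genome at chr19:10218162-10218411 (minus strand) for *Myrf*, chr7:115445403-115445652 (minus strand) for *Sox6* and chr16:91022048-91022297 (plus strand) for *Olig2*. Capitals mark matches, on either strand, to letters bound by members of these families: ACAAAG for SOX factors, the E-box CAGCTG for basic helix-loop-helix factors such as *Olig2*, CTGGCAC or CTGGTAC for MYRF, CACTTGA or CACTTAA for NKX2 factors and ATCAAAG for TCF/LEF factors. The SOX and TCF/LEF letters end alike, but neither contains the other.
Myrf: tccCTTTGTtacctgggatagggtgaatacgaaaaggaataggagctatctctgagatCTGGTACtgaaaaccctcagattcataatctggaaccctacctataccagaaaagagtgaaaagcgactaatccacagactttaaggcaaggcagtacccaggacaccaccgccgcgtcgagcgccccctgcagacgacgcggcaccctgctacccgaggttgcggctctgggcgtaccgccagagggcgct
Sox6: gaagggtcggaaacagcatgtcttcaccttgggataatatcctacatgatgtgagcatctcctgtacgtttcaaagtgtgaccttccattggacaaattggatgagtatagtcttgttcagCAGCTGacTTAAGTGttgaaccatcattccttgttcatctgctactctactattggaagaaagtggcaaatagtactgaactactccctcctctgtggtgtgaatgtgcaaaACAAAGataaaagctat
Olig2: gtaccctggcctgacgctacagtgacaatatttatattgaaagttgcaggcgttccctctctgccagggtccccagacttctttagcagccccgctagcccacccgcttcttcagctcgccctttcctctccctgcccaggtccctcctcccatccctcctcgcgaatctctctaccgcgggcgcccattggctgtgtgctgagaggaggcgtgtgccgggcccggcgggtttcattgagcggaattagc
The window of *Myrf* held 1 SOX match and 1 MYRF match. In the window of *Sox6* there were 1 SOX, 1 E-box and 1 NKX2 match, and the window of *Olig2* held none of these letters. Among all 10 members 2 windows held a SOX match, 1 an E-box match, 1 a MYRF match, 2 an NKX2 match and 0 a TCF/LEF match. Windows of the same length before 21627 gene starts held these matches in 15.9%, 11.9%, 5.79%, 4.83% and 2.86% of cases. These are matches of letters, not sites of binding. The canonical starts of *Sox6* and *Olig2* lie inside the annotated span of the gene, and which starts these cells used was not tested. The windows of the members had a median GC content of 62.2%, against 53.2% for all gene starts.

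The first question was how the 10 genes differed between OPCs and the oligodendrocytes that they give rise to. *Myrf* and *Nkx6-2* were higher in oligodendrocytes, and *Sox6*, *Olig2*, *Olig1*, *Zfp488* and *Sox8* were lower, while *Sox10*, *Nkx2-2* and *Tcf7l2* did not pass the test. The counts of the 19 libraries were fitted with edgeR's quasi-likelihood test with sex as a covariate, averaged over genotypes, and p-values were adjusted by Benjamini-Hochberg over all 18657 genes tested. Of these genes 13.7% were called higher and 20.3% lower in oligodendrocytes, beside 2 members of 10 called higher and 5 lower.

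*Myrf*, at chr19:10185634-10218161 on the minus strand, ranged from 33.2 to 71.1 normalized CPM in OPCs with a median of 47.7, and from 214.3 to 454.2 in oligodendrocytes with a median of 335.4. Every oligodendrocyte library lay above every OPC library. The difference was 6.999-fold (log2 fold change 2.81, SE 0.168, edgeR adjusted p = 2.43e-11), and *Myrf* was higher in oligodendrocytes in 7 of 7 mice that gave both cell types.

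*Nkx6-2*, at chr7:139159292-139162718 on the minus strand, was nearly silent in OPCs, where it ranged from 0.0825 to 2.38 normalized CPM with a median of 1.28. In oligodendrocytes it ranged from 4.28 to 31.5 with a median of 16.8. The groups did not overlap, but the oligodendrocyte libraries spread widely, with the libraries of control replicates 1 and 3 and Rag2 KO replicate 1 at 30.4, 27.6 and 31.5 normalized CPM and control replicate 6 at the lowest value. The difference was 16.4-fold (log2 fold change 4.04, SE 0.551, edgeR adjusted p = 6.17e-06), the largest of the 10 members and also the least precise.

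*Sox6*, at chr7:115070106-115638860 on the minus strand, was the member that fell furthest. It varied little among the OPC libraries, from 223.1 to 272.3 normalized CPM with a median of 239.4, and ranged from 7.04 to 74.2 in oligodendrocytes with a median of 42.7. All oligodendrocyte libraries lay below all OPC libraries. *Sox6* was 5.91-fold lower in oligodendrocytes (log2 fold change -2.56, SE 0.291, edgeR adjusted p = 4.71e-07), and its within-mouse difference was negative in 7 of 7 mice, from -4.94 to -1.66 on the log2(normalized CPM + 1) scale.

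*Olig2* and *Olig1* lie 41092 bases apart on chromosome 16, at chr16:91019435-91025567 and chr16:91066660-91068821, both on the plus strand. *Olig2* ranged from 108.4 to 255.6 normalized CPM in OPCs with a median of 201, and from 34.9 to 107.7 in oligodendrocytes with a median of 58.9. The groups were separate, although the highest oligodendrocyte library, Rag2 KO replicate 3, came close to the lowest OPC library, Rag2 KO replicate 1. *Olig2* was 2.98-fold lower in oligodendrocytes (log2 fold change -1.58, SE 0.2, edgeR adjusted p = 2.32e-06). *Olig1* ranged from 270 to 953.3 normalized CPM in OPCs with a median of 477.7, and from 128.5 to 300.8 in oligodendrocytes with a median of 221.1. Here the groups overlapped, since 1 OPC library, Rag2 KO replicate 1, was below the highest oligodendrocyte library. *Olig1* was 2.35-fold lower (log2 fold change -1.23, SE 0.19, edgeR adjusted p = 2.85e-05), and each of the genes was lower in 7 of 7 mice.

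*Zfp488*, at chr14:33689024-33700769 on the minus strand, ranged from 43.9 to 72.5 normalized CPM in OPCs with a median of 52.1, and from 1.22 to 37.3 in oligodendrocytes with a median of 29.9. The groups did not overlap, and the lowest value came from 8 counts in the library of control replicate 6, while the other 7 oligodendrocyte libraries lay between 16.96 and 37.3. *Zfp488* was 2.09-fold lower (log2 fold change -1.06, SE 0.334, edgeR adjusted p = 0.0172). Without control replicate 6 the fall was 1.82-fold, with a smaller SE of 0.157 and an adjusted p of 0.000221. With the mouse as a replicate block, which compares cells of the same animal, the log2 fold change was -1.15 and did not pass the test (edgeR adjusted p = 0.0807), although *Zfp488* was lower in 7 of 7 mice. Over all 30 alternative fits its adjusted p lay between 8.6e-06 and 0.215, and 27 of them called it.

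*Sox8*, at chr17:25784634-25789726 on the minus strand, ranged from 137.8 to 244.2 normalized CPM in OPCs with a median of 197.7, and from 73.4 to 176.1 in oligodendrocytes with a median of 142.5. The ranges overlapped, and 5 of 7 mice had the lower value in oligodendrocytes. The fall was 1.44-fold (log2 fold change -0.52, SE 0.163, edgeR adjusted p = 0.0168). It did not pass with the mouse as a replicate block (log2 fold change -0.53, edgeR adjusted p = 0.0972), and over the 30 alternative fits the adjusted p lay between 1.29e-06 and 0.164, with 26 calls.

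*Sox10*, at chr15:79039108-79049469 on the minus strand, kept a high level in both cell types. It ranged from 212.9 to 317.2 normalized CPM in OPCs with a median of 277.7, and from 105.3 to 283.9 in oligodendrocytes with a median of 208.9. The groups overlapped, but the oligodendrocyte libraries at 105.3, 162.4, 193.3 and 199.1 lay below every OPC library. *Sox10* was lower in oligodendrocytes in 7 of 7 mice, by -1.40 to -0.03 on the log2(normalized CPM + 1) scale. The log2 fold change of -0.35 (SE 0.148, 95% interval -0.66 to -0.04, edgeR adjusted p = 0.0723) stood beside a median of -0.24 for all genes. Leaving out oligodendrocyte control replicate 1, or control replicate 3, brought *Sox10* past the threshold, in the first case at a log2 fold change of -0.42 (edgeR adjusted p = 0.0374). *Nkx2-2*, at chr2:147019466-147036163 on the minus strand, ranged from 20.8 to 59.0 normalized CPM in OPCs and from 12.7 to 47.1 in oligodendrocytes, with medians of 34.4 and 25.7. Its log2 fold change was -0.46 (SE 0.236, 95% interval -0.95 to 0.03, edgeR adjusted p = 0.14), and 5 of 7 mice had the lower value in oligodendrocytes. *Tcf7l2*, at chr19:55730188-55922091 on the plus strand, ranged from 35.0 to 64.6 normalized CPM in OPCs and from 43.4 to 120 in oligodendrocytes, with medians of 50.9 and 53.7. Its log2 fold change of 0.23 (SE 0.168, 95% interval -0.12 to 0.58, edgeR adjusted p = 0.32) leaves room for a rise of up to 0.58 on the log2 scale. It was negative in the control libraries alone, at -0.06 (edgeR adjusted p = 0.841). Scaled to nuclear or to total gene counts, as given below, *Sox10* and *Nkx2-2* were called lower in oligodendrocytes.

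**Figure D1:**
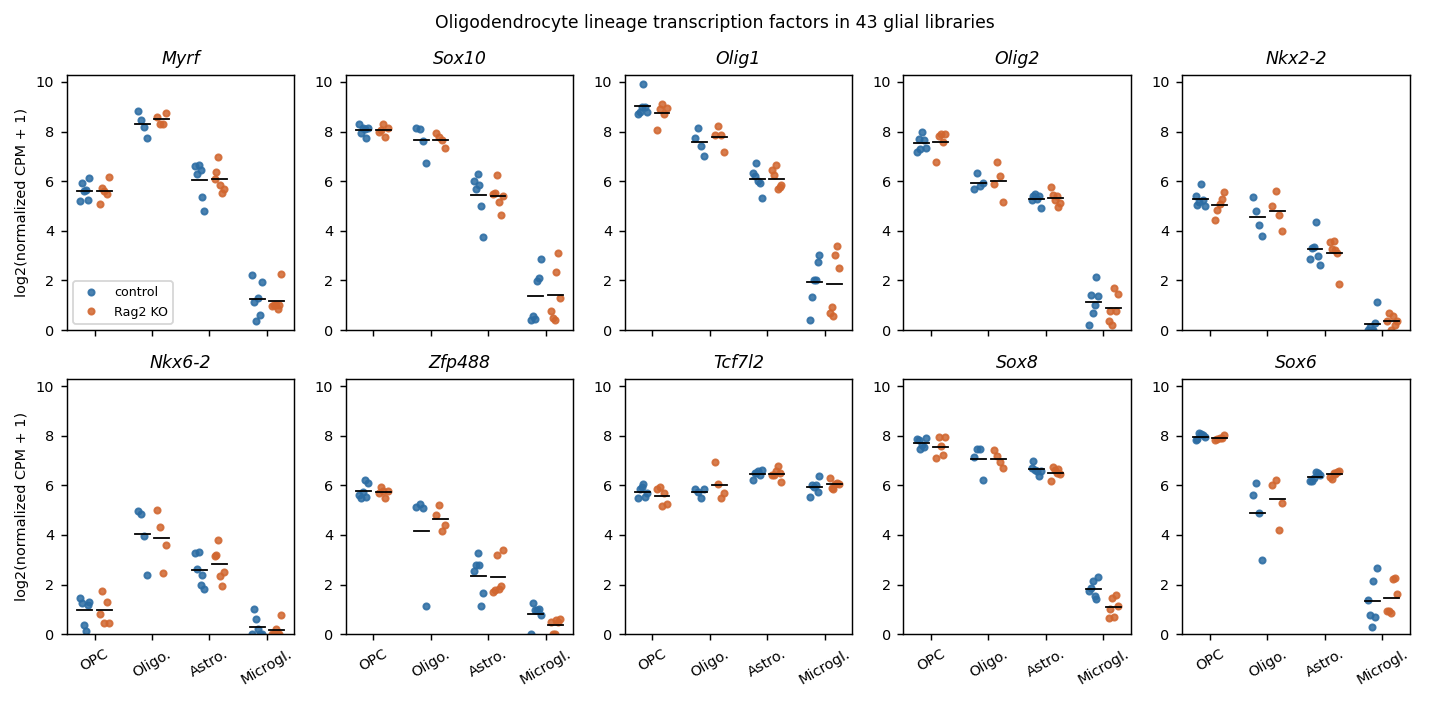
Level of each member in every library, as log2(normalized CPM + 1), by cell type (OPC, oligodendrocyte, astrocyte, microglia) and arm; each point is a library and each black line the mean of a group of 4 to 6 libraries. *Myrf* and *Nkx6-2* are highest in oligodendrocytes, *Tcf7l2* has means between 50.8 and 87.9 normalized CPM in the 4 cell types, and the other 7 members are highest in OPCs.

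In all, the ranges of 5 members did not overlap between the 2 cell types, namely *Myrf* and *Nkx6-2* on the higher side and *Sox6*, *Olig2* and *Zfp488* on the lower side. Among all 18657 genes tested 9.41% had ranges that did not overlap. The library of oligodendrocyte control replicate 6 held the lowest oligodendrocyte value of 8 of the 10 members. In the same library the OPC panel summed to 310.4 normalized CPM, the lowest of the 8 oligodendrocyte libraries, and the astrocyte and neuron panels to 3613 and 4447, the highest of the 8, while the oligodendrocyte panel was at 31010. Their part in the low values was not tested. Without this library the same number of members, 7, passed the test.

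**Figure D2:**
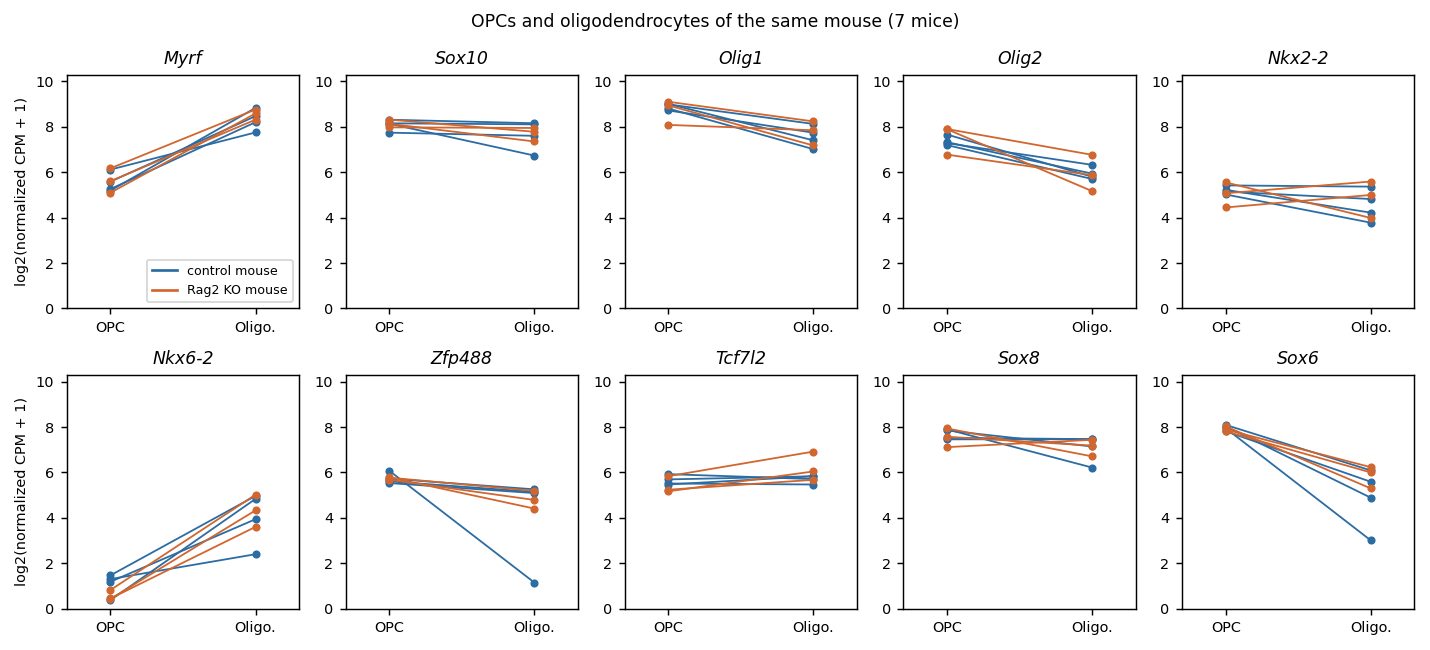
OPC and oligodendrocyte libraries of the same mouse joined by a line, as log2(normalized CPM + 1), for the 7 mice (4 control, 3 Rag2 KO) that gave both. All 7 lines rise for *Myrf* and *Nkx6-2* and fall for *Sox10*, *Olig1*, *Olig2*, *Zfp488* and *Sox6*; *Nkx2-2*, *Sox8* and *Tcf7l2* have lines in both directions.

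The scaling moved all genes together. Scaled to total gene counts instead of TMM, the median log2 fold change of all genes moved by -1.03, from -0.24 to -1.27, and the share of calls that were higher in oligodendrocytes went from 40.3% to 6.41%. Scaled to nuclear gene counts it moved by -0.41, and 19.1% of the calls were higher. On total gene counts *Myrf* and *Nkx6-2* were still called higher and the other 8 members lower, among them *Sox10* (log2 fold change -1.37), *Nkx2-2* (-1.46) and *Tcf7l2* (-0.81), whose direction reversed, beside 62.3% of all genes called lower. On nuclear gene counts 7 members were called lower beside 36.9% of all genes, and *Tcf7l2* stood at -0.19 (edgeR adjusted p = 0.392). The 7 included *Sox10* (log2 fold change -0.75, edgeR adjusted p = 0.000465) and *Nkx2-2* (-0.86, edgeR adjusted p = 0.00672). A change of scaling shifts all genes by nearly the same amount, so distances from the median gene hardly moved by construction. They are no check of the scaling. *Myrf* lay 3.05 above the median gene under TMM and 3.06 under total gene counts, *Sox6* 2.32 and 2.29 below it, *Sox10* 0.11 and 0.10 below it, and *Tcf7l2* 0.47 and 0.45 above it, all in log2 units.

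**Figure D3:**
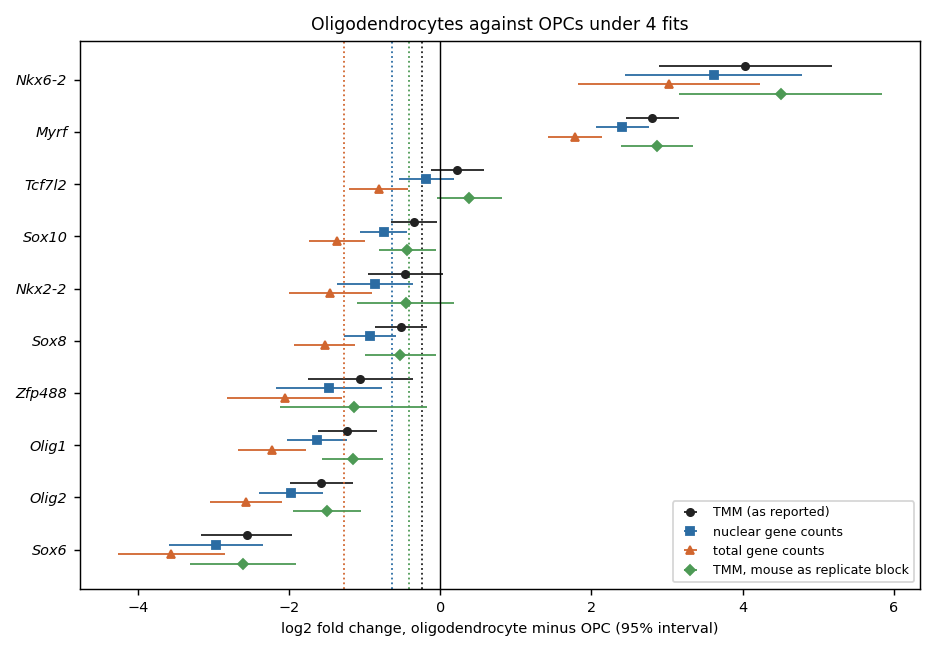
Log2 fold change of each member, oligodendrocyte minus OPC, with its 95% interval under 4 fits; dotted lines give the median of all genes tested in the fit of the same colour. The points of a gene shift left together with the dotted line from TMM to nuclear and to total gene counts, and *Tcf7l2* crosses 0.

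The markers of the cell types give a scale for these levels. In OPC libraries the oligodendrocyte panel genes had a median of 3.54% of their oligodendrocyte level (1.6% to 9.51%), while *Myrf* in OPCs was at 14.3% and *Nkx6-2* at 5.92% of theirs. In oligodendrocyte libraries the OPC panel genes had a median of 13.3% of their OPC level (9.18% to 18.4%). *Sox6* was at 17.6%, inside that range, whereas *Olig2* was at 33.7%, *Olig1* at 42.3%, *Zfp488* at 47.8%, *Sox8* at 69.0%, *Nkx2-2* at 73.9% and *Sox10* at 78.5% of their OPC level. Such percentages, here and below, are under TMM and depend on the scaling, which shifts panel genes and members alike. On total gene counts *Sox10* had a mean of 132.3 CPM in oligodendrocytes against 339.3 in OPCs. Across the 8 oligodendrocyte libraries the correlation of *Olig1* with the OPC panel passed adjustment over 30 such relations (Pearson r = 0.967, exact permutation p = 0.000149, adjusted p = 0.00112; Spearman rho = 0.952, exact permutation p = 0.00114, adjusted p = 0.00685). Without the 2 libraries farthest from the median of the panel it was r = 0.929 over the other 6, with an exact permutation p of 0.0139 that did not pass adjustment (0.0833). The other 9 members did not pass, with r between 0.231 for *Tcf7l2* and 0.809 for *Nkx2-2*. The 8 libraries are 4 littermate pairs, which the permutations treated as independent libraries. Across the 11 OPC libraries no member passed against the oligodendrocyte panel, with r between -0.453 for *Sox10* and 0.603 for *Nkx6-2* and a lowest adjusted permutation p of 0.127.

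Per length of the merged exons, the members kept different places in the 2 cell types. The merged length takes in the exons of all annotated transcripts, 16.2 kb for *Sox6* and 2.16 kb for *Olig1*. The order between genes, and the family shares given below, therefore depend in part on the annotation. In OPCs *Olig1* stood highest at 231.1 ± 77.3 normalized CPM per kb (SD, n = 11), followed by *Sox10* at 80.4 ± 10.2, *Olig2* at 46.5 ± 11.1 and *Sox8* at 39.5 ± 7.43. *Olig2* and *Sox8* lay within their spread of each other. *Sox6* (15.1 ± 1.05), *Nkx2-2* (12.6 ± 3.51) and *Zfp488* (11.8 ± 2.02) formed a middle group whose neighbours did not differ beyond their spread, *Myrf* and *Tcf7l2* were level at 5.74 ± 1.45 and 5.66 ± 1.09, and *Nkx6-2* was last at 0.553 ± 0.381. In oligodendrocytes *Olig1* (97.8 ± 28.4, n = 8) and *Sox10* (63.2 ± 17.8) again led, *Myrf* came next at 40.1 ± 9.02, and *Sox6* was last at 2.64 ± 1.5 normalized CPM per kb. The values of *Olig1*, *Nkx2-2*, *Nkx6-2*, *Olig2* and *Sox6* are less certain, because 17.8%, 12.2%, 12.9%, 6.89% and 3.02% of their exon bases, in that order, overlap counted genes on the opposite strand and the strand setting of the counting is not given in the sources used here.

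The next question was where else in the glia these genes were found. In astrocytes all 10 members were detected in every library, and in microglia *Tcf7l2* stood far above the other 9. In 1 fit of all 43 libraries, with 21368 genes tested, 8 members were higher in oligodendrocytes than in astrocytes and *Sox6* and *Tcf7l2* were lower, beside 49.7% of all genes called in either direction. *Sox6* was 2.02-fold lower in oligodendrocytes than in astrocytes (edgeR adjusted p = 0.00597), and its order was thus OPC, astrocyte, oligodendrocyte and microglia, at 244.1 ± 17.1 (SD, n = 11), 83.5 ± 8.28 (n = 12), 42.9 ± 24.3 (n = 8) and 2 ± 1.65 (n = 12) normalized CPM. OPCs against astrocytes gave 7 members higher and 2 lower, *Nkx6-2* and *Tcf7l2*, beside 42.6% of all genes called. The largest of these was *Zfp488*, 11.4-fold higher in OPCs (log2 fold change 3.51, SE 0.359, edgeR adjusted p = 8.06e-11). *Myrf* had a log2 fold change of -0.52 between OPCs and astrocytes (edgeR adjusted p = 0.0785), and it was called under 2 of the alternatives, with DESeq2 size factors (adjusted p = 0.0341) and without the filter on low counts (adjusted p = 0.00284). On total gene counts *Sox8*, *Olig2* and *Nkx6-2* were no longer called between oligodendrocytes and astrocytes, and *Sox8* turned from a log2 fold change of 0.55 to -0.07.

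The astrocyte levels stand beside a high level of oligodendrocyte markers. In astrocyte libraries the oligodendrocyte panel genes had a median of 24.5% of their oligodendrocyte level (13.2% to 33.7%), and *Myrf* was at 20.7% and *Nkx6-2* at 34.1% of theirs. Across the 12 astrocyte libraries *Sox10* (r = 0.971) and *Myrf* (r = 0.95) followed the oligodendrocyte panel, each with a permutation p of 1e-05, the smallest the 100000 resamples can give, and an adjusted p of 0.00015. Spearman rho was 0.93 for *Sox10* (permutation p = 3e-05, adjusted p = 0.0009) and 0.895 for *Myrf* (permutation p = 0.00031, adjusted p = 0.00465). Both relations kept r values of 0.922 and 0.911 without the 2 libraries farthest from the median of the panel. *Olig1* (r = 0.874, adjusted permutation p = 0.00112) and *Nkx6-2* (r = 0.831, adjusted permutation p = 0.0027) followed it too, but did not pass without those 2 libraries (r = 0.772 and 0.745, adjusted permutation p = 0.083 and 0.0833). Spearman rho was 0.86 (permutation p = 0.00063, adjusted p = 0.0063) and 0.853 (permutation p = 0.00088, adjusted p = 0.0066). *Zfp488* (r = 0.674, permutation p = 0.0145) did not pass adjustment (0.0585), and its r was 0.718 without those 2 libraries. *Sox8*, *Sox6*, *Olig2*, *Nkx2-2* and *Tcf7l2* gave r of 0.156, -0.311, 0.469, 0.315 and -0.256 and did not pass. Here too the permutations treated littermates, 6 pairs in the 12 libraries, as independent. The OPC panel genes had a median of 3.42% of their OPC level in astrocytes, with a range of 2.25% to 98.3% whose upper end is *Cspg5*, while *Sox8* was at 47.4%, *Sox6* at 34.2% and *Olig2* at 20.3% of theirs. The part of oligodendrocyte RNA in the astrocyte values was not tested.

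In microglia 9 members lay between 0 and 9.5 normalized CPM in every library, against 44.8 to 81.3 for *Tcf7l2*. Beside 68.0% of all genes called, 9 members were higher in oligodendrocytes than in microglia, from 20.03-fold for *Sox6* to 226.1-fold for *Myrf*, and *Tcf7l2* had a log2 fold change of -0.09 (SE 0.134, edgeR adjusted p = 0.547), which on total gene counts was a fall of -1.01 (adjusted p = 5.1e-07). OPCs against microglia gave 9 members higher and *Tcf7l2* lower (1.26-fold, edgeR adjusted p = 0.0151), beside 69.5% of all genes. That fall of *Tcf7l2* was lost on total gene counts (log2 fold change -0.22, adjusted p = 0.173) and without the filter (adjusted p = 0.0675), and turned to 0.12 on nuclear gene counts (adjusted p = 0.407). Against microglia, astrocytes had 10 members higher, beside 70.0% of all genes, though *Tcf7l2* (log2 fold change 0.48) did not pass on total gene counts (0.21, adjusted p = 0.174). The OPC panel in microglia libraries summed to 14.04 to 80.6 normalized CPM, 0.639% of its OPC level for the median gene, and the 9 low members were between 0.449% and 1.2% of the level in their highest cell type.

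*Tcf7l2* was the exception among the members in its pattern. Its mean was 87.9 ± 10.7 normalized CPM in astrocytes (SD, n = 12), 63.0 ± 9.9 in microglia (n = 12), 60.7 ± 24.97 in oligodendrocytes (n = 8) and 50.8 ± 9.72 in OPCs (n = 11). Astrocytes were 1.75-fold above OPCs (edgeR adjusted p = 6.74e-07) and 1.49-fold above oligodendrocytes (edgeR adjusted p = 0.000503), while between microglia and oligodendrocytes the test was not passed. Over the 43 libraries and 11306 genes with a mean of at least 5 normalized CPM, its closest match was *Ppp2r5a*, a regulatory subunit of protein phosphatase 2A, with r = 0.799. The other members had matches of r = 0.945 or more, over points that fall into the same 4 cell types. *Sox10* and *Olig1* were each other's closest match (r = 0.984), and *Olig1* was the closest match of *Olig2* (r = 0.98). *Ptprd* and *Mapk8ip1* were closest to *Myrf* (r = 0.991 and 0.989), *Pllp*, a myelin protein gene, to *Nkx2-2* (r = 0.969), *Ndrg1* to *Nkx6-2* (r = 0.945), *Sh3d19* to *Zfp488* (r = 0.967), *Srgap1* to *Sox8* (r = 0.986), and *Xylt1* and *Ptprz1* to *Sox6* (r = 0.98 and 0.977).

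**Figure D4:**
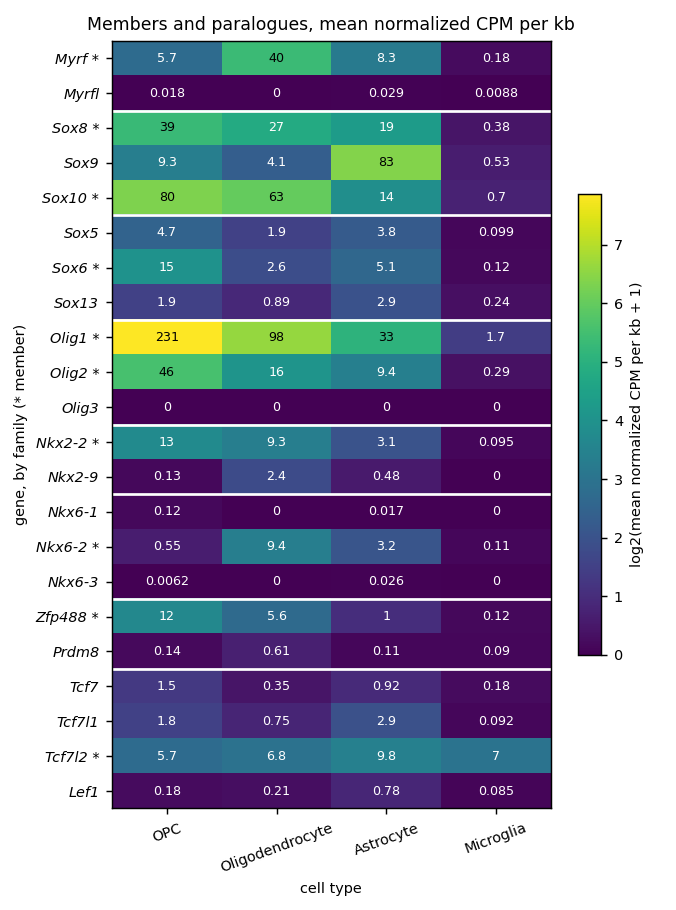
Mean normalized CPM per kb of merged exon (numbers; colour on a log2(x + 1) scale) of the 10 members (asterisk) and 12 paralogues in the 4 cell types, grouped by family. *Sox9* is the leading SOXE gene of astrocytes and *Sox10* of OPCs and oligodendrocytes, and *Olig3* is at 0 throughout.

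Each member belongs to a family, and 12 paralogues were measured beside them. Of these, 8 passed the filter for OPCs against oligodendrocytes, with 2 called higher and 4 lower (1 and 5 on total gene counts), and their median log2 fold change was -1.38 beside -0.24 for all genes. *Sox5*, the partner of *Sox6* in the SOXD group, fell 2.63-fold in oligodendrocytes (SE 0.201 on the log2 scale, edgeR adjusted p = 1.18e-05), and *Sox13* fell 2.91-fold (edgeR adjusted p = 0.0106). Summed per kb over the 3 SOXD genes, *Sox6* held 69.8% ± 3.23 in OPCs (SD, n = 11) and 47.0% ± 21.5 in oligodendrocytes (n = 8). In the SOXE group *Sox10* held 62.3% ± 4.13 in OPCs and 66.1% ± 5.84 in oligodendrocytes, and *Sox8* held 30.4% ± 3.85 and 28.7% ± 3.56, which lie within their spread. Astrocytes had the reverse order, with 71.3% ± 7.06 for *Sox9*, a factor of glial specification that astrocytes keep, and 12.2% ± 5.4 for *Sox10* (n = 12). *Sox9* was 39 ± 17.6 normalized CPM in OPCs, 17.1 ± 15.4 in oligodendrocytes and 347.4 ± 76.7 in astrocytes, and it was called lower in oligodendrocytes than in OPCs (log2 fold change -1.37, SE 0.43, edgeR adjusted p = 0.0174). The astrocyte panel moved the same way, summing to 2113 to 5981 normalized CPM in OPCs and 1323 to 3613 in oligodendrocytes, and its part in this difference was not tested.

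The remaining families were led by the member itself. *Olig3* had 0 counts in all 43 libraries, *Nkx6-3* had at most 3 counts in any library, and *Nkx6-1* had 0 counts in all oligodendrocyte and microglia libraries. *Nkx2-9* reached 10.8 normalized CPM in 1 oligodendrocyte library but had a median of 1.5 there, and was called higher in oligodendrocytes than in OPCs (log2 fold change 4.46, SE 1.12, edgeR adjusted p = 0.00369). *Prdm8*, a PR-domain zinc-finger relative of *Zfp488*, rose 3.39-fold (edgeR adjusted p = 0.0145) from 1.26 ± 1.03 to 5.33 ± 3.83 normalized CPM, averaged over genotypes. Within oligodendrocytes its log2 fold change between Rag2 KO and control was -2.42 (95% interval -4.18 to -0.66), which did not pass adjustment (edgeR adjusted p = 0.998). Of the TCF/LEF factors *Tcf7* fell 5.4-fold from OPCs to oligodendrocytes (edgeR adjusted p = 0.0155), from 5.66 ± 1.29 to 1.34 ± 1.97 normalized CPM. *Tcf7l1* (log2 fold change -1.7, edgeR adjusted p = 0.0887) and *Lef1* (-0.05, edgeR adjusted p = 0.963) did not pass. *Tcf7l2* held 61.9% ± 7.13 of the family per kb in OPCs, 84.1% ± 8.69 in oligodendrocytes, 68.4% ± 4.6 in astrocytes and 95.1% ± 3.14 in microglia. *Myrfl* was at or near 0, with at most 5 counts in a library.

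Other regulators and the targets of these factors were set beside the members for OPCs against oligodendrocytes, under the same test and against a median log2 fold change of -0.24 for all genes. These lists were chosen with earlier results of these data known, so their counts are description only. The counts on total gene counts stand beside the 62.3% of all genes called lower there. Of 20 further regulators linked to the precursor state, 15 fell, 0 rose and 5 did not pass, with a median log2 fold change of -1.66, and on total gene counts 19 fell. *Prrx1*, a homeobox gene of quiescent OPCs, fell 10.2-fold (edgeR adjusted p = 3.39e-06), *Etv5*, an ETS factor downstream of growth factor signalling, fell 2.86-fold, and the progenitor factor *Sox2* fell 3.32-fold. Of 20 regulators linked to differentiation or myelination 7 rose and 6 fell with a median of -0.28, while on total gene counts 3 rose and 13 fell. *St18* rose 29.9-fold, from 3.03 ± 2.32 to 85.2 ± 13.4 normalized CPM (edgeR adjusted p = 3.41e-10), *Zeb2*, a repressor of inhibitory signals in differentiating cells, rose 2.77-fold and *Zfp536* rose 4.63-fold, while *Nfatc2* fell 6.2-fold, *Tead1* 2.86-fold and *Zfp24* 1.7-fold. Of 17 chromatin regulators and cofactors 0 rose and 6 fell, with a median of -0.37, and on total gene counts 16 fell, where the list median minus that of all genes was -0.12. The smallest p-values were those of *Hdac2*, a histone deacetylase (2.21-fold lower, edgeR adjusted p = 0.000142), the remodeller *Chd7* (1.38-fold lower) and the histone chaperone *Daxx* (2.04-fold lower). Myelin and differentiation genes known as targets of *Sox10*, *Myrf* or *Olig2* rose in 18 of 20 cases with 0 lower and a median log2 fold change of 4.69. *Mbp*, which encodes myelin basic protein, rose 59.9-fold, *Cnp* 10.7-fold and *Nfasc* 5.93-fold (edgeR adjusted p = 6.35e-13, 1e-11 and 3.91e-12). On total gene counts 18 rose and 2 fell. All 11 genes of the oligodendrocyte panel, by which the cell type was checked, are among these 20 targets, so their rise is no separate result.

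Genes of committed precursors and newly formed oligodendrocytes went both ways, with 3 of 10 higher and 3 lower in oligodendrocytes, and 2 higher and 7 lower on total gene counts. *Bcas1* rose 8.78-fold, *Enpp6* 20.6-fold and *Tns3* 1.32-fold, while *Neu4* fell 6.29-fold, *Gpr17* 3.3-fold and *Itpr2* 2.79-fold. Markers of other cell types also differed between the libraries. The neuron panel was called higher in oligodendrocytes for 8 of 10 genes and lower for 1, *Gad1* (5 and 2 on total gene counts), and summed to 1589 to 4447 normalized CPM there against 653.6 to 1553 in OPCs. The microglia panel was higher for 3 of 9 genes (0 on total gene counts; 377.7 to 1454 against 210.1 to 1125), the astrocyte panel lower for 9 of 10, and the endothelial and mural panel lower for 9 of 10 (13.7 to 137.4 against 108.8 to 411). Their part in the values of the members was not tested.

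The study's own question was whether loss of lymphocytes changes these cells. None of the 10 members was called between Rag2 KO and control in any cell type by edgeR's quasi-likelihood test with sex as a covariate, nor by DESeq2. In oligodendrocytes 0 of 13802 genes tested were called (0.0%), 467 had an unadjusted p under 0.05 and DESeq2 without the filter called 205. In OPCs 1 of 16882 genes was called (0.00592%), in astrocytes 1 of 14725 (0.00679%) and in microglia 1 of 15003 (0.00667%). At an unadjusted p under 0.05 the members numbered 0 of 10 in oligodendrocytes, OPCs and astrocytes and 1 of the 7 that passed the filter in microglia.

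In OPCs the log2 fold changes of the members lay between -0.34 for *Olig1* and 0.04 for *Olig2*, with the lowest adjusted p at 1.0. *Olig1* was 547.9 ± 201.9 normalized CPM among control OPCs (SD, n = 6) and 441.8 ± 106 among Rag2 KO OPCs (n = 5), where control replicate 4 held the highest value, 953.3, and Rag2 KO replicate 1 the lowest, 270. The arms overlapped. The intervals bound the effects that could have been missed. *Sox6* had the narrowest, from -0.28 to 0.11 on the log2 scale, *Sox10* ran from -0.27 to 0.21, and *Nkx6-2*, with few counts, from -1.62 to 1.47.

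In oligodendrocytes the log2 fold changes lay between -0.14 for *Nkx6-2* and 0.50 for *Tcf7l2*. *Tcf7l2* was at 56.1, 51.4, 43.4 and 56.0 normalized CPM in control replicates 1, 3, 5 and 6 and at 120, 65.0, 43.8 and 50.2 in the Rag2 KO replicates of the same numbers. A single Rag2 KO library stood above the rest, and the arms overlapped (95% interval -0.15 to 1.15, edgeR adjusted p = 0.998). *Myrf* was at 454.2, 353, 293.5 and 214.3 in controls and at 383.4, 317.2, 317.8 and 432.4 in Rag2 KO oligodendrocytes, with a log2 fold change of 0.13 (95% interval -0.41 to 0.67, edgeR adjusted p = 0.998). The direction differed between littermate pairs.

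A test of whether the genotype effect differed between oligodendrocytes and OPCs called 6 of 18657 genes (0.0322%) and none of the members, with the lowest member p-value adjusted to 0.641 for *Tcf7l2* (difference of log2 fold changes 0.61, SE 0.337). By the unadjusted p-value 0 members were under 0.05, beside 1606 of the 18657 genes tested. In astrocytes the members' log2 fold changes between genotypes lay between -0.16 for *Sox8* and 0.34 for *Nkx6-2*. In microglia *Sox8* was lower in Rag2 KO by a log2 fold change of -1.14 (SE 0.437, edgeR adjusted p = 0.999), the member with an unadjusted p under 0.05 (0.0159). Its level there was 2.63 ± 0.878 normalized CPM among control and 1.19 ± 0.582 among Rag2 KO microglia (SD, n = 6 each), where the mean over all microglia libraries was 0.952% of that in OPCs, and the arms overlapped.

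**Figure D5:**
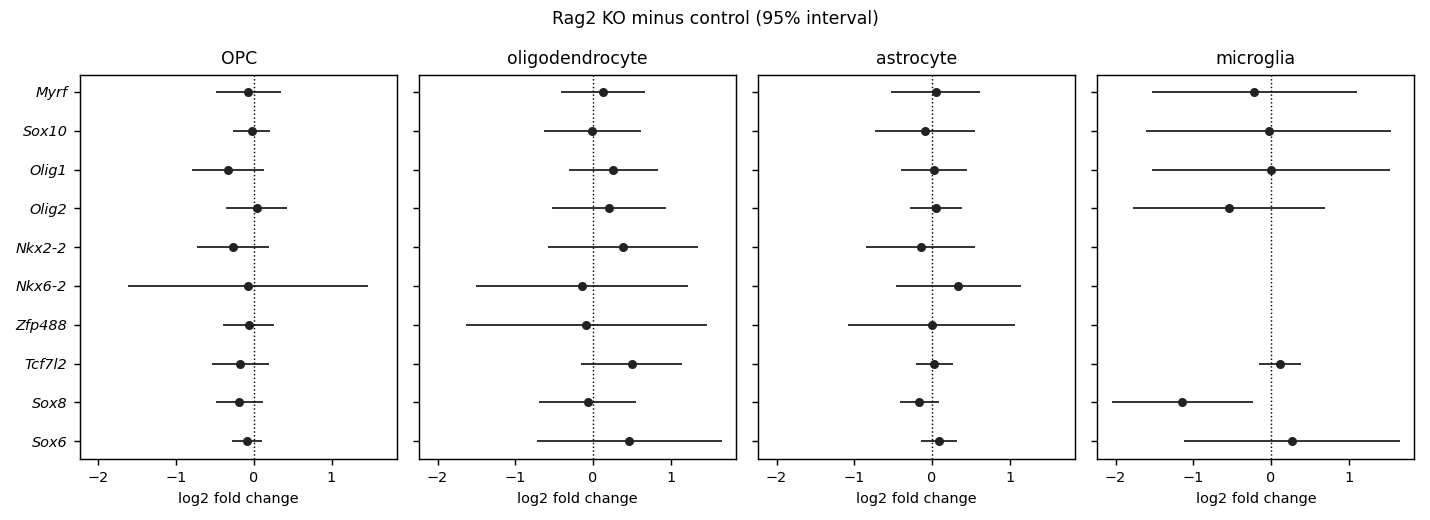
Log2 fold change, Rag2 KO minus control, of each member in the 4 cell types with its 95% interval; the 3 members that did not pass the filter in microglia have no point. All intervals include 0 except that of *Sox8* in microglia, which did not pass adjustment over all genes.

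Sex was a covariate and was tested in the same fits. Between females and males 5 of 13802 genes were called in oligodendrocytes (0.0362%), 5 of 16882 in OPCs (0.0296%), 6 of 14725 in astrocytes (0.0407%) and 7 of 15003 in microglia (0.0467%), and none of the members was among them, by edgeR or by DESeq2. By unadjusted p-value 0 members were under 0.05 in any cell type. The members' log2 fold changes, female minus male, lay between -1.04 for *Nkx6-2* and 0.08 for *Myrf* in oligodendrocytes and between -0.12 for *Sox10* and 0.61 for *Nkx6-2* in OPCs.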

How the data were processed

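The members and gene lists were chosen with earlier results of these data known. RNA was amplified as cDNA, sequenced as read pairs, aligned by the authors with STAR 2.7.8a to GRCm39 with the Ensembl annotation and counted with HTSeq. The deposited values are raw counts per gene in 43 libraries, with no normalization. Read pairs that the counting did not assign to a gene, for any reason (33.5% to 52.0% of a library), were left out. Gene names, exon lengths, coordinates and promoter windows came from GENCODE M39 on GRCm39, which held 54749 of 55416 identifiers; of 159 list genes 158 matched. Amplification multiplies molecules before counting, so counting error understates the spread. The value of 1 gene of the oligodendrocyte panel is not reported here.

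Genes were filtered with filterByExpr (minimum count 10, minimum total 15) and tested in R 4.3.3 with edgeR 4.0.16 (quasi-likelihood), with DESeq2 1.42.0 as an alternative, at an adjusted p of 0.05. Cell types were scaled by TMM over all libraries, arms and sexes by TMM within a cell type. The genotype fits had genotype and sex as terms. The edgeR test was checked on simulated data for OPCs against oligodendrocytes and for genotype within oligodendrocytes and within OPCs. The other comparisons, DESeq2 and the permutation tests were not simulated. Levels use a pseudocount of 1 on the log2 scale. Correlations used permutation tests, exact for 8 libraries and with 100000 resamples otherwise, two-sided. The permutations did not keep littermate pairs together, so their p-values may be too small. Scipy 1.17.1, pandas 2.3.3 and matplotlib 3.10.9 were used. Libraries of a group differed by a chi-square of at least 8.18 per gene, so each counted as 1 sample.

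The named genes were all members and paralogues, of each other list the 3 genes with the smallest p in each direction among those called, panel genes as markers, and for each member the 3 genes with the highest correlation; in the text fewer of the last and of the panel genes are given. Littermates share a number in the labels and OPCs and oligodendrocytes of a mouse come from 1 animal, so the numbers pair the libraries. Deviations from the group means correlated on average by 0.152 for oligodendrocyte littermates, 0.175 for OPC, 0.212 for astrocyte and 0.174 for microglia littermates, and by 0.092 between the OPCs and oligodendrocytes of a mouse, against -0.05, -0.035, -0.041, -0.036 and -0.008 for other libraries. The fits with the replicate block are alternatives. Pair 6 was a male control and a female Rag2 KO mouse, and the littermates of the other pairs were of the same sex. The genotype fits with littermate pairs as blocks kept the sex term, which took up the difference within pair 6. Their genotype effects therefore rest on the other pairs.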

Additional observations from a re-analysis of the deposited data

Results flagged for a closer look

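Of 80 sets of libraries of a member in 1 cell type and arm, 6 held a library far from the others by Dixon's test at the 95% level, where chance flags about 1 in 20. *Zfp488* was at 1.22 normalized CPM in oligodendrocyte control replicate 6, against 33.1 to 37.3 in the other 3 control libraries. *Olig1* was at 953 normalized CPM in OPC control replicate 4, against 421 to 514 in the other 5. *Nkx2-2* was at 19.5 normalized CPM in astrocyte control replicate 4, against 5.2 to 9.09 in the other 5, and at 1.19 in microglia control replicate 6, against 0 to 0.205. *Myrf* was at 3.82 and *Nkx6-2* at 0.727 normalized CPM in microglia Rag2 KO replicate 6, against 0.784 to 1.04 and 0 to 0.16 in the other 5. The oligodendrocyte panel summed to 139.9 normalized CPM in microglia control replicate 6 and to 120 in microglia Rag2 KO replicate 6, the highest sums of the 12 microglia libraries, whose lowest was 81.2. Its part in these values was not tested.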

How the results depend on the processing

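Between OPCs and oligodendrocytes 6346 genes were called. The count was 12424 on total gene counts, 3570 with control libraries alone and 3084 with Rag2 KO libraries alone, where fewer samples were tested, and leaving out single libraries gave counts of 5711 to 6787. *Myrf*, *Olig1*, *Olig2*, *Nkx6-2* and *Sox6* were called in the same direction under all 30 alternatives. *Tcf7l2* reversed to -0.81 on total gene counts, -0.19 on nuclear gene counts and -0.065 with control libraries alone. With the replicate block, which pairs cells of a mouse or littermates, *Zfp488* and *Sox8* lost their calls between OPCs and oligodendrocytes, and no other member changed its call in any comparison. The 6 genes called for the difference of the genotype effect became 162 without the filter, 0 with the mouse as replicate block, and 0 to 13 with 1 library left out, an alternative chosen after seeing the data (lowest without oligodendrocyte Rag2 KO replicate 5, among others, highest without oligodendrocyte control replicate 3); the cause was not tested.

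Without the filter, and with DESeq2 on all genes, the genotype comparison called 15 and 205 genes in oligodendrocytes (0 as reported), 90 and 5 in OPCs and 9 and 3 in microglia, and 30 in astrocytes without the filter. The sex comparison called 107 and 432 in oligodendrocytes, 69 and 13 in OPCs, 120 and 19 in astrocytes and 25 and 11 in microglia. None of these calls was a member. Leaving out each library gave 0 genotype calls in oligodendrocytes, 1 in OPCs, 1 in astrocytes and 1 to 2 in microglia (2 without control replicate 3 or any 1 of the Rag2 KO libraries). Of 30 relations with marker panels 5 passed, 11 on CPM of total gene counts and 2 without the 2 farthest libraries.

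Genotype effects that were not called changed sign in places. In oligodendrocytes *Myrf* went to -0.092 and *Sox6* to -0.032 with the littermate pair as replicate block, where pair 6 did not inform the genotype effect. *Sox10* went to 0.0033 with DESeq2 size factors and 0.0033 with the DESeq2 test. In OPCs *Olig2* went to -0.042 and *Nkx6-2* to 0.65 with that block, and *Myrf* to 0.15 and *Zfp488* to 0.14 with the Rag2+/- controls alone. With each library left out, the oligodendrocyte values ran from -0.48 to 0.29 for *Nkx6-2*, -0.10 to 0.37 for *Olig2*, -0.20 to 0.12 for *Sox10*, -0.26 to 0.27 for *Sox8* and -0.46 to 0.36 for *Zfp488*. The OPC values ran from -0.21 to 0.065 for *Myrf*, -0.54 to 0.24 for *Nkx6-2*, -0.09 to 0.19 for *Olig2*, -0.093 to 0.047 for *Sox10* and -0.14 to 0.025 for *Zfp488*. Few counts limited *Nkx6-2* in OPCs (1 to 36 per library) and 9 members in microglia.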
